A study of Mus musculus with 13 samples.

Results

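The BCL2 family of apoptosis regulators was examined in SM1 melanoma tumours as 10 genes: Bcl2, Bcl2l1, Mcl1, Bcl2l11, Bmf, Bbc3, Pmaip1, Bad, Bax and Bak1. Members were chosen by name. Every probe set that the platform annotation pairs with one of these symbols and no other was taken, which gave 29 probe sets for 9 of the 10 genes, among 34945 with a single symbol. Of these, 26 passed a filter on low values (above 5.79, the 40th percentile of all values, on at least 2 arrays). For Bax, which encodes a pore-forming effector, no probe set carried the symbol alone, and it was not analysed here. The single probe set of Pmaip1 did not pass, so 8 members were tested.

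SM1 is a transplantable mouse melanoma with an activating BRAF mutation, grown here in C57BL/6 mice. All animals received splenocytes by adoptive transfer, either from pmel-1 mice, whose T cells recognise a melanocyte antigen, or from C57BL/6 mice as the control. Total RNA of whole tumours was measured on 13 Affymetrix arrays. The groups were pmel-1 recipients given dabrafenib and trametinib together (the combination, 3 arrays), dabrafenib (2), trametinib (2) or vehicle (2), and control recipients given the combination (2) or vehicle (2). Dabrafenib inhibits BRAF and trametinib inhibits MEK, the next kinase of the same pathway. No dose or treatment time is given in the labels, and SM1 is a single transplanted line. The labels do not tie replicates to different mice, so the spread behind each p-value may be technical.

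The family sets the threshold for mitochondrial apoptosis. Pro-survival members (BCL2, BCL-XL, MCL1) bind and hold the effectors BAX and BAK, which otherwise permeabilise the outer mitochondrial membrane. BH3-only members (BIM, BMF, PUMA, NOXA, BAD) occupy the pro-survival proteins or engage the effectors, and in melanoma cells ERK signalling is known to restrain BIM and BMF. Transcript levels do not report the phosphorylation and degradation by which BIM, BAD and MCL1 are also controlled.

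Promoters are shown for 3 BH3-only genes: Bcl2l11 and Bbc3, each with a FOXO word in the window shown, and Bmf, the member with the largest rise. The other windows of these 3 genes are not shown and held no FOXO word. Windows run from 250 bases before to 50 after a RefSeq gene start (GRCm38.p6), 5′ to 3′ on the strand of the gene, and capitals mark GTAAACA or its reverse complement. The windows are chr2:128125788-128126087 (plus strand) for Bcl2l11, chr7:16310011-16310310 (plus strand) for Bbc3 and chr2:118549637-118549936 (minus strand) for Bmf.
Bcl2l11: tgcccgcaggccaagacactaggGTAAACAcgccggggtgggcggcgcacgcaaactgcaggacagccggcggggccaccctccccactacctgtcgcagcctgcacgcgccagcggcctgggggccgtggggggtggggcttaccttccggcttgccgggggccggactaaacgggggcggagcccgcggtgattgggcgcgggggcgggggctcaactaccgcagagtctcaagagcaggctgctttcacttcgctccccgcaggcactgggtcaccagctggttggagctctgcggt
Bbc3: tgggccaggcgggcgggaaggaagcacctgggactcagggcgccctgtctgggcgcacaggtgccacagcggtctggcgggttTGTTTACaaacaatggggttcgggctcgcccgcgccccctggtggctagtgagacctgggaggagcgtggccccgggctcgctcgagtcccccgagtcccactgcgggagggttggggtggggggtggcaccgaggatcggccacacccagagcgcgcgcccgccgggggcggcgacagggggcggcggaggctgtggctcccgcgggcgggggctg
Bmf: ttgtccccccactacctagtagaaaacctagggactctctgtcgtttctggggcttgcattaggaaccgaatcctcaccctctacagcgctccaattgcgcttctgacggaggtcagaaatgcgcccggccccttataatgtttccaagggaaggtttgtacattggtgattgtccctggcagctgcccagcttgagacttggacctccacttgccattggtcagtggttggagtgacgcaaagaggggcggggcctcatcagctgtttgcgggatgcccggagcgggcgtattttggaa
The word began at position -227 from the start in the Bcl2l11 window and at -167 in the Bbc3 window. Of 17 windows of 9 members (Bax with a window and Pmaip1 without), 2 held it, as did 3.65% of 32851 windows of all genes. The M-box word TCATGTG (3.77% of all windows) and the AP-1 word TGANTCA (7.81%) were in 0 of the 17. Both strands were searched, and no 2 words overlapped. A match is a description of the letters and says nothing about binding.

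RNA and cell measures differed between the groups and stand beside every result that follows. Over 5 array control transcripts, the average of 3′ over 5′ signal (log2) ran from 1.002 to 1.54 in pmel-1 tumours under any drug (7 arrays) and from 0.35 to 0.72 in the other 6. Among those transcripts the 18S ribosomal ratio ran from -0.42 to 0.22 in the first set and from -2.29 to -1.33 in the second. The mean over 13 leukocyte genes was 8.11 to 8.58 in pmel-1 tumours given the combination or dabrafenib, 7.16 and 7.45 with trametinib, 6.90 and 6.96 with vehicle, 7.01 and 7.08 in control combination tumours and 6.53 and 6.62 in control vehicle tumours. Of these genes 11 of 13 rose with the combination over both kinds of recipient, as did 8 of 10 macrophage, 5 of 8 fibroblast and 2 of 5 T cell markers (1 of these, Cd3g, was above 5.79 on drug-treated arrays only), while the T cell genes Cd247, Cd2 and Cd28 were never above 5.79. Of 8 endothelial genes 2 rose and 2 fell, and 0 of 4 adipocyte, 0 of 4 muscle and 0 of 3 keratinocyte genes passed in limma. In the same comparison 28.1% of all 13785 genes tested rose and 24.5% fell. The adipocyte hormone gene Adipoq was high on 3 arrays, at 10.05 (second combination array of pmel-1 recipients), 10.32 (second dabrafenib array) and 9.30 (first trametinib array), and at most 7.54 on the others. The muscle actin gene Acta1 was at 9.90 on 1 control vehicle array, the third by number, and at most 6.61 on the others. In whole tumours fewer cells of a type and less RNA per cell cannot be told apart, and the part of these measures in the results was tested only where an adjusted value is given.

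**Figure D1:**
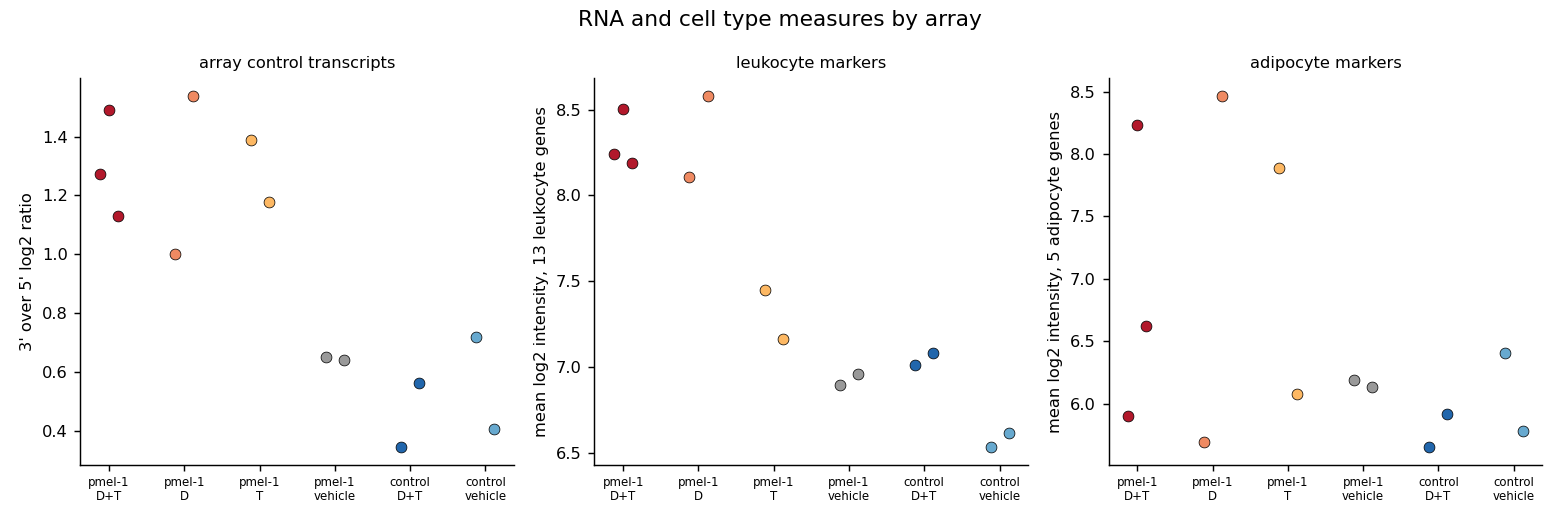
3 measures by array and group (D, dabrafenib; T, trametinib; each point an array): the 3′ over 5′ log2 ratio of 5 control transcripts, and the mean log2 intensity of 13 leukocyte and 5 adipocyte genes. The 7 pmel-1 drug arrays lie at 1.002 or above on the ratio, and the other 6 at 0.72 or below.

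With the combination, 6 of the 8 members changed against vehicle over both kinds of recipient, each by its brightest probe set. Bmf, Bbc3, Mcl1 and Bad went upward and Bcl2l1 and Bcl2 downward, though other probe sets of Mcl1 fell. Of all 13785 genes tested, 52.6% passed the same threshold (limma, Benjamini-Hochberg adjusted p under 0.05), 28.1% higher and 24.5% lower. The median change of the 8 members was 0.18 on the log2 scale and that of all genes 0.01, and the median sizes of change were 0.35 and 0.28. In pmel-1 recipients 5 members changed (45.6% of all genes), 3 upward (24.3%) and 2 downward (21.2%). In control recipients 3 changed (35.4%), 1 upward (18.7%) and 2 downward (16.7%). Fewer members passed over both kinds of recipient without the third control combination or the third control vehicle array. In pmel-1 recipients fewer passed without the second vehicle array, and fewer of all genes passed there whichever array was left out. Over the omissions the pooled changes ran from -1.04 to -0.79 (Bcl2l1), -0.56 to -0.45 (Bcl2) and 1.03 to 1.32 (Bmf). They ran from 0.28 to 0.37 (Mcl1), 0.31 to 0.43 (Bbc3) and 0.14 to 0.22 (Bad). Taken probe set by probe set over both kinds of recipient, 5 of 26 rose and 12 fell (50.2% of 24579 probe sets passed), with a median of -0.23. Of the 26, 3 (1426191_a_at of Bcl2l1, 1426334_a_at of Bcl2l11 and 1425716_s_at of Bak1) passed the filter through vehicle arrays only and could enter only as lower with drug, so their falls are a description and support nothing. Among the other 23 probe sets 5 rose and 9 fell, with a median of -0.01. Of these 23, 11 passed in pmel-1 recipients (44.3% of all probe sets), 6 in control recipients (31.3%), 10 with dabrafenib (39.9%) and 13 with trametinib (37.4%). All log2 changes below are given ± SE from the fit over 13 arrays. Where arrays are said not to overlap, the share of all genes that do the same was not counted. With 2 or 3 arrays a group, arrays were also apart where a member did not pass. Bcl2l11 in control recipients is an example (0.05 ± 0.15, adjusted p = 0.827 in limma).

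**Figure D2:**
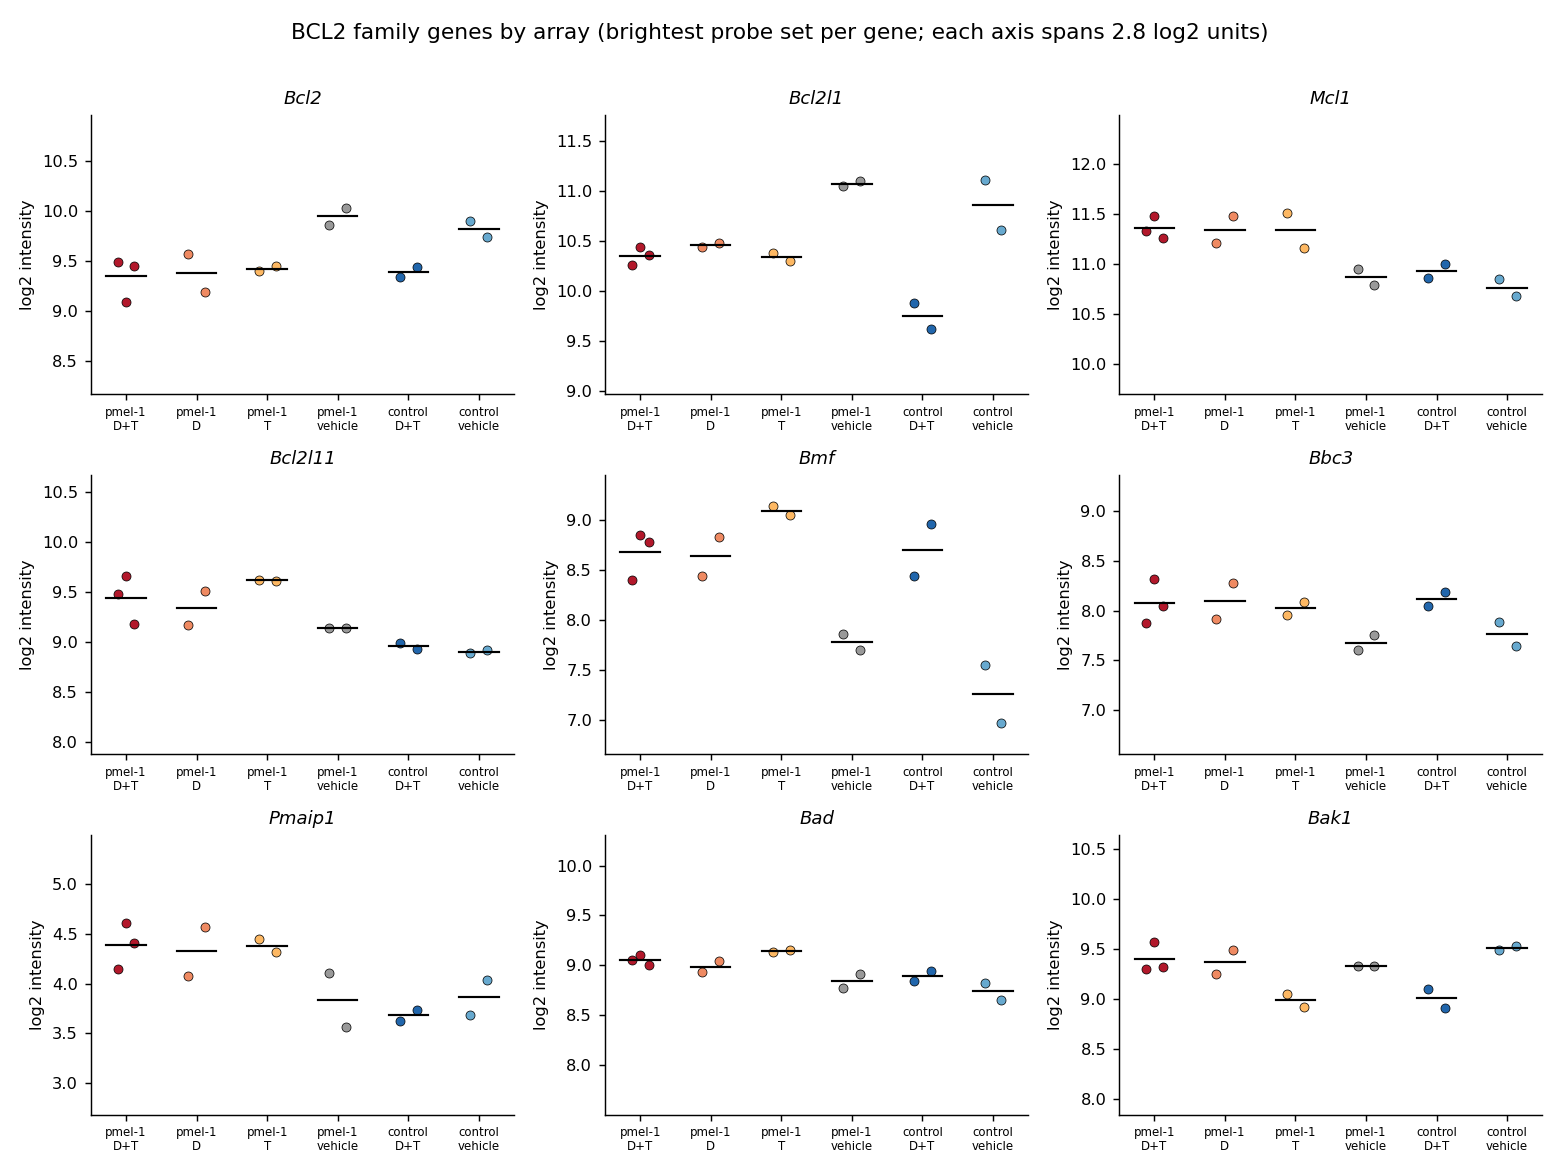
Log2 intensity of the brightest probe set of each member on every array, by group (D, dabrafenib; T, trametinib; points are arrays, bars are group means). Each axis spans the same range; Bmf is higher and Bcl2l1 lower in every drug-treated array than in the vehicle arrays of the same recipients, and Pmaip1 lies under the filter level of 5.79 throughout.

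Among the pro-survival genes, Bcl2l1 (chr2:152758732-152833803), which encodes BCL-XL, fell with every drug treatment. Its brightest probe set, 1420888_at, read 10.26, 10.44 and 10.36 in pmel-1 combination tumours, 10.45 and 10.49 with dabrafenib, 10.38 and 10.30 with trametinib, and 11.05 and 11.10 with vehicle. In control recipients it read 9.88 and 9.62 with the combination, against 11.11 and 10.61 with vehicle. No drug-treated array reached the vehicle arrays of its own recipients. The change was -0.92 ± 0.10 over both kinds of recipient (adjusted p = 2.49e-05), -0.72 ± 0.14 in pmel-1 recipients, -1.11 ± 0.15 in control recipients, -0.61 ± 0.15 with dabrafenib and -0.74 ± 0.15 with trametinib, and all of these passed. Of its other probe sets, 1420887_a_at changed by -0.53 ± 0.13 over both kinds of recipient (adjusted p = 0.00511 in the fit of all probe sets). Probe set 1426191_a_at was above 5.79 on 2 vehicle arrays and on no drug-treated array, and 1426050_at on no array. Adjusted for the 3′ over 5′ ratio, the change of Bcl2l1 in pmel-1 combination tumours was -0.91 (adjusted p = 0.023).

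Bcl2 (chr1:106538176-106714290), the founding pro-survival gene, was lower too. Probe set 1457687_at read 9.49, 9.10 and 9.46 in pmel-1 combination tumours, 9.57 and 9.19 with dabrafenib, 9.40 and 9.45 with trametinib, and 9.87 and 10.04 with vehicle. Control tumours read 9.35 and 9.45 with the combination, against 9.91 and 9.74 with vehicle. Drug and vehicle arrays did not overlap in either kind of recipient. The change was -0.52 ± 0.11 over both (adjusted p = 0.00176) and -0.60 ± 0.14 in pmel-1 recipients, where it passed, while the -0.43 ± 0.16 in control recipients did not (adjusted p = 0.0555). It passed with dabrafenib (-0.57 ± 0.16) and trametinib (-0.53 ± 0.16). Probe sets 1437122_at (-0.57 ± 0.10) and 1422938_at (-0.34 ± 0.08) passed over both kinds of recipient, and 1443837_x_at (-0.25 ± 0.13) and 1440770_at (-0.01 ± 0.15) did not. In pmel-1 recipients none of the 3 Bcl2 calls passed once adjusted for the ratio (combination -0.30, dabrafenib -0.28, trametinib -0.23), whereas the value over both kinds of recipient did (-0.39, adjusted p = 0.022).

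Mcl1 (chr3:95656944-95663179), whose short-lived protein restrains BAK and BIM, gave opposite directions in different probe sets. The brightest, 1437527_x_at, read 11.33, 11.49 and 11.26 in pmel-1 combination tumours, 11.21 and 11.49 with dabrafenib, 11.51 and 11.17 with trametinib, and 10.96 and 10.79 with vehicle. Control tumours read 10.87 and 11.003 with the combination, against 10.85 and 10.68 with vehicle. Drug and vehicle arrays of pmel-1 recipients were apart, and those of control recipients nearly met. This probe set rose by 0.33 ± 0.10 over both kinds of recipient (adjusted p = 0.0161), and 1456243_x_at (0.35 ± 0.10) and 1456381_x_at (0.46 ± 0.14) rose with it. The opposite held for 2 others. Probe set 1416881_at read 8.34, 8.58 and 8.57 in pmel-1 combination tumours, 8.50 and 8.43 with dabrafenib, 8.41 and 8.25 with trametinib, and 8.93 and 9.03 with vehicle. Control tumours read it at 8.66 and 8.31 with the combination, against 9.07 and 8.91 with vehicle. Every drug-treated array was under every vehicle array for this probe set. Probe set 1448503_at fell by 0.32 on the log2 scale (adjusted p = 0.00938) and 1416881_at fell by 0.49 (adjusted p = 0.00122), while 1416880_at (0.16 ± 0.11) did not pass. The arrays of 1448503_at read 10.64, 10.86 and 10.87 in pmel-1 combination tumours, 10.73 and 10.82 with dabrafenib, 10.85 and 10.59 with trametinib, and 11.08 and 11.02 with vehicle. Control tumours read it at 10.66 and 10.58 with the combination, against 11.07 and 10.92 with vehicle. No single direction can be given for Mcl1 from these arrays. Adjusted for the ratio, the rise of 1437527_x_at was 0.15 and did not pass, and the falls of 1448503_at (-0.38) and 1416881_at (-0.48) did.

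**Figure D3:**
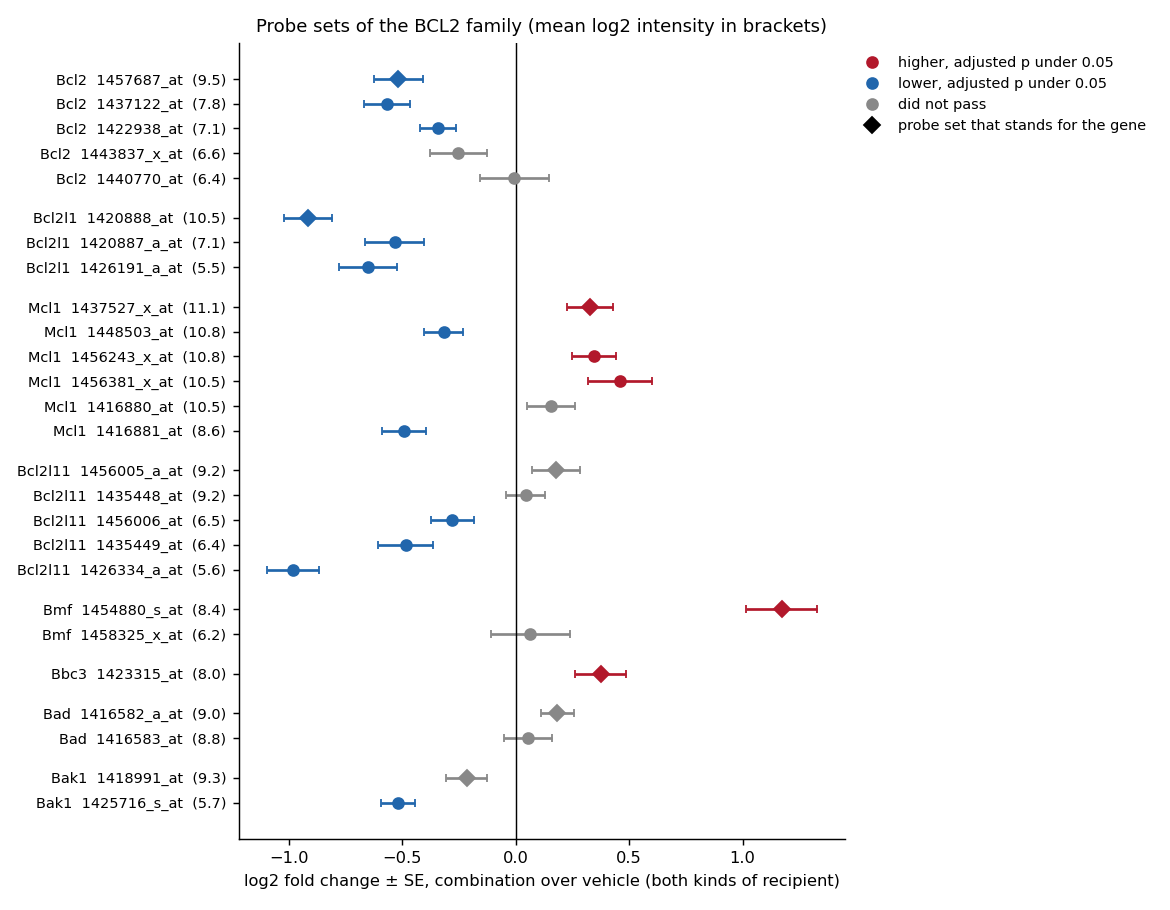
Log2 fold change ± SE of the 26 member probe sets that passed the filter, combination over vehicle over both kinds of recipient, in the fit of all probe sets, with the mean log2 intensity of each in brackets. Probe sets of Mcl1 and of Bcl2l11 spread to both sides of 0, and the 3 that entered through vehicle arrays only (1426191_a_at, 1426334_a_at, 1425716_s_at) could lie only on the lower side.

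Of the BH3-only genes, Bmf (chr2:118528757-118549686) had the largest rise. BMF binds pro-survival proteins and is held at the cytoskeleton in unstressed cells. Probe set 1454880_s_at read 8.40, 8.85 and 8.78 in pmel-1 combination tumours, 8.44 and 8.83 with dabrafenib, 9.13 and 9.05 with trametinib, and 7.86 and 7.69 with vehicle. It read 8.44 and 8.96 in control combination tumours, against 7.54 and 6.97 in control vehicle tumours. Every drug-treated array was above every vehicle array. The rise was 1.17 ± 0.16 over both kinds of recipient (adjusted p = 8.21e-05), 0.90 ± 0.21 in pmel-1 and 1.44 ± 0.23 in control recipients, 0.86 ± 0.23 with dabrafenib and 1.32 ± 0.23 with trametinib, and all passed. In pmel-1 recipients the values adjusted for the ratio over 5 transcripts did not pass (combination 0.29, dabrafenib 0.27, trametinib 0.72). With the mRNA and the Actb and Gapdh ratios, which were added later, trametinib passed (1.03 and 1.10, adjusted p = 0.0158 and 0.0202) and the combination did not (0.61 and 0.62, adjusted p = 0.0868 and 0.194). In control recipients, whose ratios overlapped (0.345 and 0.565 with the combination, against 0.407 and 0.721 with vehicle), the adjusted rise was 1.55 (adjusted p = 0.000103). A second probe set, 1458325_x_at, changed by 0.06 ± 0.17 and did not pass, and 1422995_at read under 5.79 on all arrays.

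Bcl2l11 (chr2:128126038-128162547) encodes BIM, which binds all pro-survival members. Its brightest probe set, 1456005_a_at, read 9.48, 9.66 and 9.18 in pmel-1 combination tumours, 9.17 and 9.51 with dabrafenib, 9.62 and 9.61 with trametinib, and 9.13 and 9.14 with vehicle, so each drug group was above vehicle. Control tumours read 8.98 and 8.92 with the combination, against 8.88 and 8.91 with vehicle. It passed with trametinib (0.48 ± 0.15, adjusted p = 0.0273) and not over both kinds of recipient with the combination (0.18 ± 0.10, adjusted p = 0.175). The trametinib call ended when any 1 of its 4 arrays was left out, with each ratio as a covariate (0.13, 0.23 and 0.23; adjusted p = 0.689, 0.287 and 0.335) and with the mean of all probe sets (0.01, adjusted p = 0.939). Probe set 1435448_at read 9.84 and 9.72 with trametinib and at most 9.38 on the other 11 arrays. Its change with trametinib against vehicle was 0.71 ± 0.13 (adjusted p = 0.00155), and the combination differed from trametinib by -0.59 ± 0.12 without passing (adjusted p = 0.0536). Over both kinds of recipient 1435449_at (-0.48 ± 0.12) and 1456006_at (-0.28 ± 0.10) went the other way and passed. The last probe set, 1426334_a_at, was above 5.79 on the 4 vehicle arrays only, so its values are a description. It read 5.11, 5.14 and 5.62 in pmel-1 combination tumours, 5.28 and 5.38 with dabrafenib, 5.39 and 5.61 with trametinib, and 5.99 and 6.21 with vehicle. Control tumours read it at 5.26 and 5.09 with the combination, against 6.29 and 6.36 with vehicle. As with Mcl1, the direction for the gene depended on the probe set.

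Bbc3 (chr7:16308398-16318334) encodes PUMA, a p53 and FOXO target that binds all pro-survival members. Its single probe set read 7.87, 8.31 and 8.05 in pmel-1 combination tumours, 7.92 and 8.27 with dabrafenib, 7.96 and 8.09 with trametinib, and 7.60 and 7.75 with vehicle. It read 8.04 and 8.19 in control combination tumours, against 7.88 and 7.65 in control vehicle tumours. Combination and vehicle arrays did not overlap within either kind of recipient. The rise was 0.37 ± 0.11 over both (adjusted p = 0.0144) and 0.40 ± 0.15 in pmel-1 recipients (adjusted p = 0.0483). It did not pass in control recipients (0.35 ± 0.16, adjusted p = 0.124), with dabrafenib (0.42 ± 0.16, adjusted p = 0.0623) or with trametinib (0.34 ± 0.16, adjusted p = 0.124). The pmel-1 call passed in 5 of 16 alternatives and omissions and ended with no filter (adjusted p = 0.0585) and in the fit of all probe sets (adjusted p = 0.0525). Adjusted for the ratio, the pmel-1 value was -0.0093 (adjusted p = 0.981) and that over both kinds of recipient 0.20 (adjusted p = 0.16).

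Bad (chr19:6941861-6951905), whose protein is inactivated by phosphorylation downstream of survival kinases, had small differences. Probe set 1416582_a_at read 9.06, 9.11 and 9.01 in pmel-1 combination tumours, 8.93 and 9.04 with dabrafenib, 9.14 and 9.16 with trametinib, and 8.77 and 8.92 with vehicle. Control tumours read 8.84 and 8.94 with the combination, against 8.82 and 8.66 with vehicle. The rise of 0.18 ± 0.07 over both kinds of recipient was close to the threshold (adjusted p = 0.046) and did not pass in the fit of all probe sets (adjusted p = 0.0576). The one with trametinib was 0.30 ± 0.10 (adjusted p = 0.0382) and passed in 4 of 15 alternatives and omissions (adjusted p = 0.0213 to 0.583 over all of them). The other probe set, 1416583_at, changed by 0.05 ± 0.11 and did not pass. Pmaip1, which encodes NOXA, the partner of MCL1, read from 3.56 to 4.61 on the 13 arrays and was under the filter level on every array.

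Bak1 (chr17:27019812-27028627) encodes the effector BAK. Probe set 1418991_at read 9.30, 9.57 and 9.32 in pmel-1 combination tumours, 9.24 and 9.49 with dabrafenib, 9.05 and 8.92 with trametinib, and 9.33 on both vehicle arrays. It read 9.10 and 8.91 in control combination tumours, against 9.49 and 9.53 in control vehicle tumours. The arrays overlapped in pmel-1 recipients given the combination and were apart in control recipients. The change was -0.50 ± 0.13 in control recipients (adjusted p = 0.0103) and 0.07 ± 0.12 in pmel-1 recipients (adjusted p = 0.674). With trametinib it was -0.34 ± 0.13 (adjusted p = 0.0571), and the combination lay above trametinib by 0.41 (95% interval 0.15 to 0.67) without passing (adjusted p = 0.138). The difference between the effects in pmel-1 and control recipients was 0.57 ± 0.17 (95% interval 0.19 to 0.96) and did not pass (adjusted p = 0.167). The other probe set, 1425716_s_at, was above 5.79 on the 4 vehicle arrays only.

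**Figure D4:**
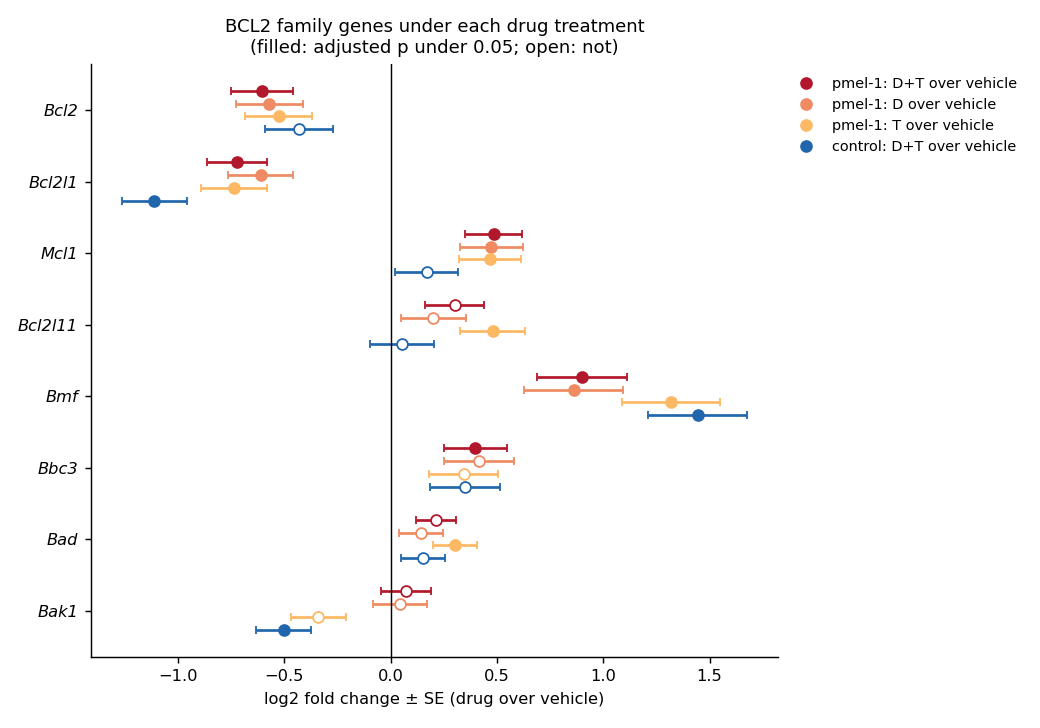
Log2 fold change ± SE of the 8 tested members under each drug treatment over vehicle of the same recipients; filled points have an adjusted p under 0.05. Bcl2l1 is lower and Bmf higher in all 4 comparisons, and Bak1 is lower in control recipients.

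The single drugs were compared with vehicle and with each other in pmel-1 recipients, and every comparison with vehicle there shares the same 2 vehicle arrays. Dabrafenib changed 4 members (41.4% of all genes), Mcl1 and Bmf upward (21.8%) and Bcl2 and Bcl2l1 downward (19.6%). Trametinib changed 6 (38.6%), the same 4 in the same directions with Bcl2l11 and Bad upward (19.5% higher and 19.1% lower over all genes). Mcl1 and Bcl2l11 were counted by their brightest probe sets, and their other probe sets went both ways with either drug. On average 1448503_at and 1416881_at of Mcl1 and 1456006_at and 1435449_at of Bcl2l11 read lower than with vehicle. Probe sets 1456243_x_at, 1456381_x_at and 1416880_at of Mcl1 and 1435448_at of Bcl2l11 read higher. The count for trametinib was 2 or 3 in place of 6 when any 1 of its 4 arrays was left out, and the count for dabrafenib was 1 in place of 4 without the second dabrafenib or the second vehicle array. Between treatments 0 of 8 members passed in limma for the combination against dabrafenib (0% of all genes; 0 members at an unadjusted p under 0.05), for the combination against trametinib (1.1%, of which 0.856% higher and 0.239% lower; 1 member, Bak1) and for dabrafenib against trametinib (0.776%, of which 0.588% higher and 0.189% lower; 1 member, Bak1). Of member probe sets 0 of 26 passed in these 3 comparisons (0%, 0.614% and 0.46% of all probe sets). These comparisons share arrays. For Bmf the combination differed from dabrafenib by 0.04 (95% interval -0.43 to 0.50) and from trametinib by -0.42 (-0.88 to 0.05). For Bcl2l1 these differences were -0.11 (-0.42 to 0.20) and 0.01 (-0.29 to 0.32).

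The transferred cells were compared within each drug arm. Among vehicle tumours 0 of 8 members passed between pmel-1 and control recipients (0% of all genes; 1 member, Bmf, at an unadjusted p under 0.05). Among combination tumours 1 passed (4.24%, of which 2.66% higher and 1.58% lower; 3.23% of probe sets), Bcl2l1, which was higher in pmel-1 recipients by 0.60 ± 0.14 (adjusted p = 0.0397). Probe set 1420887_a_at of Bcl2l1 differed by 0.12 ± 0.17 and did not pass, and leaving out any 1 of the 5 arrays ended the call (adjusted p = 0.0505 to 0.168). The 3′ over 5′ ratio of these combination tumours did not overlap (1.13 to 1.49 in pmel-1 and 0.35 to 0.56 in control recipients). With the planned, the mRNA or the Actb and Gapdh ratio as a covariate 0 members passed. Of all genes 2, 15 and 46 then passed in place of 584. The interaction of transfer and combination passed for 0 of 8 members (0.283% of all genes, 0.232% higher and 0.0508% lower, and 0.358% of probe sets). At an unadjusted p under 0.05 there was 1 member, Bak1.

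Other genes of the pathway were taken from lists. Of 11 tested relatives of the family, 0 rose and 6 fell with the combination over both kinds of recipient. Of all genes 28.1% rose and 24.5% fell there, 52.6% together. Bok, an effector relative, read 8.14, 8.28 and 8.44 in pmel-1 combination tumours, 8.37 and 8.15 with dabrafenib, 8.54 and 8.58 with trametinib, and 10.53 and 10.47 with vehicle. Control tumours read 8.60 and 8.33 with the combination, against 10.52 and 9.76 with vehicle. Every drug-treated array was under every vehicle array, and the change was -1.94 ± 0.14 (adjusted p = 1.06e-06). The BH3-only gene Bik changed by -1.44 ± 0.15 on its brightest probe set, the BH3-only relative Bnip3, a hypoxia-responsive mitophagy gene, by -1.25 ± 0.28, and Bnip1 by -0.46 ± 0.10. With trametinib Bnip3 changed by -0.10 ± 0.41 and did not pass.

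Downstream and beside the family, 3 of 5 tested inhibitor of apoptosis genes rose and 0 fell, Birc2 by 0.70 ± 0.10 and Birc3 by 0.67 ± 0.11. Xiap, the caspase inhibitor, rose by 0.44 ± 0.07 on one probe set and changed by -0.61 ± 0.12 on another. In the death receptor pathway 2 of 10 rose and 5 fell (1 of these, Tnfrsf10b, was above 5.79 on vehicle arrays only), among them Cflar (1.12 ± 0.08), which blocks caspase-8, and Ripk3 (-1.30 ± 0.09), the kinase of necroptosis. Of 15 caspase and mitochondrial release genes 4 rose and 5 fell, with Casp9 at 0.45 ± 0.06, Apaf1 at 0.48 ± 0.09 and Htra2 at -0.66 ± 0.08. The 2 other probe sets of Casp9 and the other of Apaf1 (0.26) did not pass. Opa1, a mitochondrial fusion gene, rose by 0.36 ± 0.06 on its brightest probe set with 2 others lower (-0.44 and -1.06). In this comparison, the combination over both kinds of recipient, 28.1% of all genes rose and 24.5% fell, 52.6% together.

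Lists of regulators moved unevenly. Of 13 FOXO genes and targets 8 rose and 2 fell, with Fbxo32 at 2.91 ± 0.20, Sesn3 at 1.99 ± 0.08 and Irs2 at -1.52 ± 0.21. Fbxo32, a muscle atrophy ubiquitin ligase and FOXO target, read 9.96, 10.41 and 10.10 in pmel-1 combination tumours, 9.42 and 10.45 with dabrafenib, 10.10 and 10.13 with trametinib, and 7.77 and 7.43 with vehicle. Control tumours read 9.80 and 10.38 with the combination, against 6.92 and 6.72 with vehicle. No drug-treated array of it met a vehicle array. Of 11 p53 targets 3 rose and 5 fell, with Trp53inp1 at 2.11 ± 0.15 and Aen at -0.99 ± 0.08. Of 11 integrated stress response genes 0 rose and 7 fell, including Asns (-2.00 ± 0.16) and Chac1 (-1.51 ± 0.18). Of 14 ERK output genes 1 rose and 9 fell, with Etv4, an ETS factor induced by ERK signalling, at -3.29 ± 0.08. Etv4 read 7.03, 6.87 and 7.01 in pmel-1 combination tumours, 7.50 and 7.38 with dabrafenib, 7.05 and 7.38 with trametinib, and 10.24 and 10.27 with vehicle. Control tumours read 7.20 and 7.09 with the combination, against 10.51 and 10.38 with vehicle. Of 12 melanocyte lineage genes 11 rose (1 of these, Tyrp1, was above 5.79 on drug-treated arrays only) and 0 fell, including the pigment cell receptor gene Gpr143 (3.80 ± 0.20). Of 11 genes for turnover or binding of member proteins 3 rose and 2 fell. Fbxw7, of the ligase that degrades MCL1, rose by 0.33 ± 0.08 on its brightest probe set and did not pass on another (0.17). The dynein light chain gene Dynll1 changed by -0.52 ± 0.10 on its brightest probe set. Dynll2, a dynein light chain that tethers BMF, rose by 0.53 ± 0.07 and Usp9x, an MCL1 deubiquitinase, by 0.36 ± 0.07, each with another probe set lower (-0.57 and -0.51). Of all genes, 28.1% were higher and 24.5% lower.

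**Figure D5:**
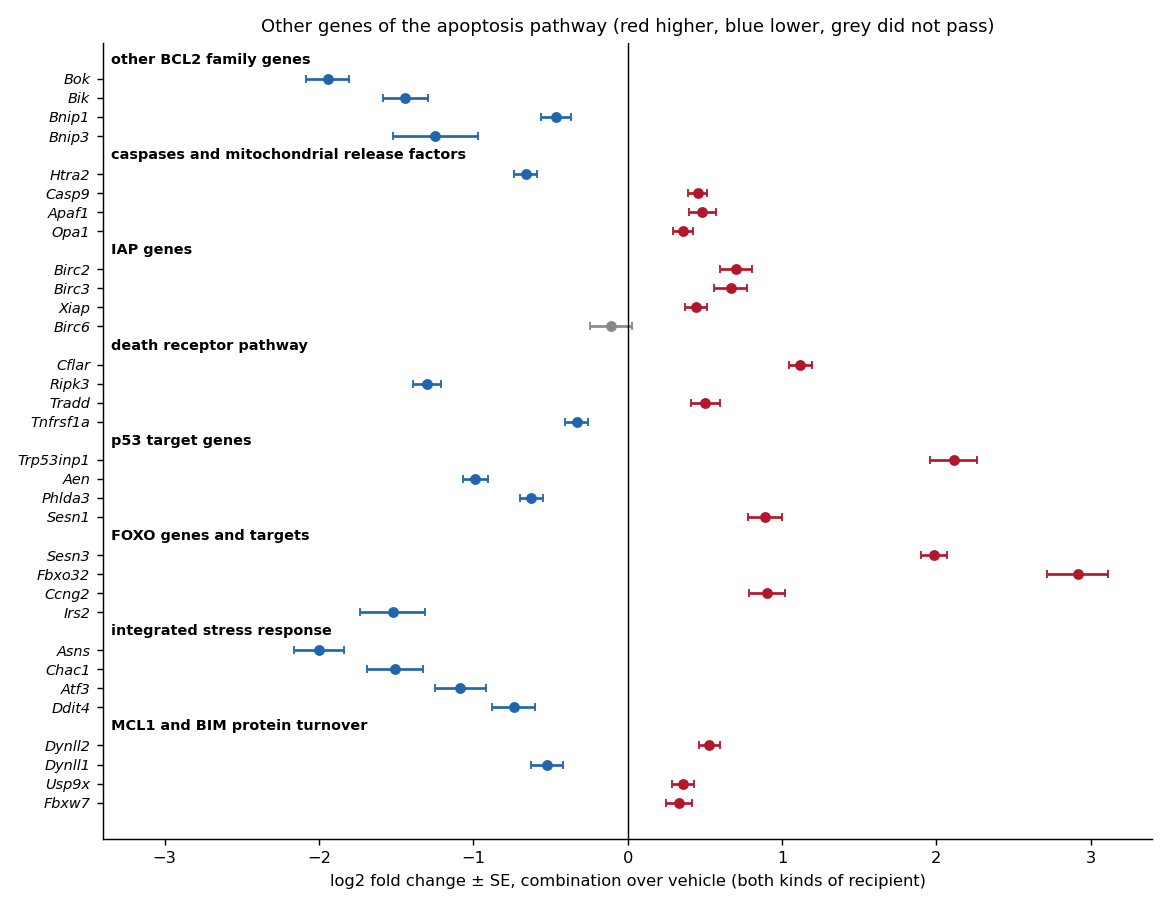
Log2 fold change ± SE of up to 4 genes from each of 8 lists (ERK output and melanocyte genes are not drawn), combination over vehicle over both kinds of recipient, chosen by the smallest p. All 4 named relatives of the family are lower, and Fbxo32 has the largest rise shown.

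By their values over the 13 arrays, the genes most like Bmf were Slc44a1 (Pearson r = 0.976), Mxd1 (0.976) and Pink1 (0.975), and those most like Bcl2l1 were Zfp36 (0.952), Txnl1 (0.945) and Hdac1 (0.937). Among members, Bmf and Bad had r = 0.862, Bcl2 and Bbc3 -0.85, and Bcl2l1 and Bmf -0.631. These are descriptions over arrays that share treatment groups and RNA measures.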

How the data were processed

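Total RNA of SM1 tumours was hybridised to Affymetrix mouse genome arrays, per the labels' protocols. The authors deposited RMA values, which are log2 intensities for each probe set; RMA and the affy package are named, without versions, per the submitters' processing notes. Arrays have no read depth, and their number (13 in 6 groups) limits the precision. Of 45101 probe sets, 34945 have 1 symbol in the platform annotation, 932 several and 9160 none. The probe set with the highest mean stood for each of 18193 symbols, and 13785 genes above 5.79 on at least 2 arrays were tested.

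With limma 3.58.1 (R 4.3.3), group means were fitted to the 13 arrays (7 residual degrees of freedom), with Benjamini-Hochberg adjustment over all genes within each of 11 contrasts at 0.05. A second fit took 24579 probe sets one by one. The fit was tested on simulated data. Rose, fell and changed mean an adjusted p under 0.05. Members, lists and tests were chosen with earlier results of these data known. Named genes are every member probe set, up to 4 genes a list by smallest p, and the 3 genes most correlated with Bmf and with Bcl2l1. Cell type markers were set by array as means of log2 values.

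The planned covariate was a mean 3′ over 5′ ratio (log2) from the control probe sets, taken over 5 transcripts. Ratios over the 4 mRNA controls and over Actb and Gapdh alone were added after its effect on the members had been seen, as was leaving out the 3 arrays of high Adipoq. Deviations of samples that share a replicate number correlated at r from -0.46 to 0.45 (4 of 23 pairs over 0.1). These pairs are not independent, as different replicate numbers of the same groups gave identical values. In pmel-1 recipients this held for dabrafenib with trametinib (-0.374), dabrafenib with vehicle (-0.130) and trametinib with vehicle (0.054). The check therefore cannot decide whether shared numbers mark pairs, and numbers were not used as pairs. Alternatives were no filter, the mean of all probe sets, all probe sets, only the arrays compared, median centring, array weights, the covariate, the replicate block and leaving out each array. A search of protein sequences for the BH3 core was not run, as no protein table was used here. A further planned promoter word is not reported here.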

Additional observations from a re-analysis of the deposited data

How the results depend on the processing

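Of 25 member changes that passed, 7 passed under every alternative and omission: Bcl2l1 with the combination in its 3 comparisons and with trametinib, Bmf in the pooled and the control comparison, and Bcl2 in the pooled one. Bad over both kinds of recipient (0.18) passed in 3 of 20 alternatives and omissions. With the planned ratio over 5 transcripts as a covariate, 16 of the 25 no longer passed, and 13 with the ratio over 4 mRNA controls and 16 with that over Actb and Gapdh. These last 2 were chosen after the effect of the first on the members had been seen. Bmf in pmel-1 combination tumours was 0.29, 0.61 and 0.62 under the 3 ratios, and Bbc3 was -0.0093, with its sign changed, 0.19 and 0.21, against 0.90 and 0.40 without a covariate. The ratio moves together with drug treatment of pmel-1 recipients, and so with the transfer in combination tumours and with the interaction. The parts of these cannot be told apart.

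Counts of members in the fit reported were 5 for the combination in pmel-1 recipients and 3 in control recipients. They were 4 for dabrafenib, 6 for trametinib and 1 for the transfer in combination tumours. With the planned ratio they were 1, 5, 1, 1 and 0 in the same order. Of all 13785 genes 2042, 5529, 1937, 1996 and 2 passed then, against 6282, 4874, 5709, 5323 and 584 in the fit reported. With the mRNA ratio the members were 1, 5, 1, 3 and 0 in the same order, and all genes 4098, 5425, 3934, 3563 and 15. With the Actb and Gapdh ratio the members were 1, 4, 0, 3 and 0, and all genes 2756, 5362, 2511, 3371 and 46. The mean of all probe sets gave 5 in control recipients, 2 for dabrafenib, 3 for trametinib and 0 for the transfer, and reversed Bcl2l11 (pooled combination -0.31, pmel-1 -0.25, control -0.36, dabrafenib -0.30) and Bak1 in pmel-1 combination tumours (-0.26), each of which then passed. Only the arrays compared gave 2 members for dabrafenib and 0 for the transfer (4237 and 378 of all genes). Without the 3 arrays of high Adipoq the counts were 0 for dabrafenib and 0 for the transfer. The replicate block gave 0 for the transfer and changed no other count of members by over 1.5 times.

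Leaving out each array in turn gave 3 to 6 members over both kinds of recipient (3 without the third control combination or the third control vehicle array), 2 to 5 in pmel-1 recipients (2 without the second vehicle array), 2 to 3 in control recipients (2 without either of those), 1 to 5 for dabrafenib (1 without its second array or the second vehicle array), 2 to 3 for trametinib and 0 to 1 for the transfer in combination tumours. The 1 that passed without pmel-1 combination replicate 3 was Bcl2l11 and not Bcl2l1.

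Fitting all 24579 probe sets called 12337 (pooled), 10886 (pmel-1) and 7681 (control) for the combination, 9802 for dabrafenib and 9199 for trametinib. These count probe sets, not genes (7252, 6282, 4874, 5709 and 5323), and each share is lower than that of genes. Counts of genes moved by over 1.5 times. In pmel-1 recipients the planned ratio gave 2042, 1937 and 1996 for the combination, dabrafenib and trametinib, the Actb and Gapdh ratio 2756, 2511 and 3371, the mRNA ratio 4098 for the combination, and leaving out the high Adipoq arrays 3307 for dabrafenib. The combination against trametinib gave 12 (replicate block) to 373 (mRNA ratio) in place of 151, and dabrafenib against trametinib 0 (only the arrays compared) to 290 (mRNA ratio) in place of 107. The transfer gave 2 (planned ratio) to 618 (median centred) in place of 584 in combination tumours and up to 5 in place of 0 in vehicle tumours, and the interaction 0 (each ratio) to 90 (only the arrays compared) in place of 39. Leaving out 1 array gave 119 to 1033 for the transfer in combination tumours, up to 48 in vehicle tumours, 0 to 102 and 0 to 283 for the 2 comparisons with trametinib, 0 to 33 for the interaction and 3643 at least for dabrafenib.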
